A study of Mus musculus with 6 samples.

Results

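Tight junctions seal the gap between neighbouring epithelial cells, and the 10 genes described here encode their parts: the claudins Cldn1, Cldn2, Cldn3, Cldn4, Cldn7, Cldn12 and Cldn14, occludin (Ocln), the scaffold Tjp1 and the adhesion molecule F11r. They were chosen by symbol, and each matched 1 of 24489 gene entries in the deposited table of liver RNA reads. Libraries of polyadenylated RNA were prepared from 1 liver lobe of untreated mouse pups at postnatal day 10, on a C3H/C57bl6J background in both genotypes. Of the 6 libraries, 3 were Jag1Ndr/Ndr, homozygous for the Nodder missense allele of the Notch ligand gene Jag1, and 3 were Jag1+/+, their controls. The choice of genes was made with the genotype difference in these same reads in view, so for these 10 genes that difference is a description only, and no test on it is used in support of anything below.

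Claudins span the membrane and pair with claudins of the next cell, and the mix of claudins decides which ions and molecules pass between the cells. Scaffolds such as the ZO-1 protein of Tjp1 tie them to the actin cytoskeleton. In liver, tight junctions between hepatocytes close the bile canaliculi and part bile from blood, and those between cholangiocytes line the bile ducts. In Alagille syndrome, the human disease that the Jag1Ndr/Ndr mouse models, bile ducts are too few and bile drains poorly.

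Reads over gene entries ranged from 12992592 to 59653111 per library, and the deepest and the shallowest were both Jag1Ndr/Ndr. Values are CPM, reads set to a common library total after scaling by TMM (trimmed mean of M values), unless a value is said to be per length. Log2 fold changes are Jag1Ndr/Ndr over Jag1+/+, fitted with edgeR over the 13819 genes that passed its filter on low counts, each with its standard error (SE). A gene is called past the threshold at an adjusted p under 0.05 over all of these genes. All 10 genes passed the filter. The labels do not say that each library is a separate animal, so the spread between libraries may in part be technical. In a whole lobe, fewer cells of a type and less RNA per cell cannot be told apart. The sexes, read from Xist and Y-linked reads, were unevenly spread, with 1 female Jag1+/+ and 2 female Jag1Ndr/Ndr libraries.

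Across the 10 genes, Cldn4 and Cldn7 lay 17.96-fold and 14.2-fold higher in Jag1Ndr/Ndr livers, Cldn2 1.90-fold higher, and Cldn1, Cldn12 and Cldn14 1.59-fold, 1.45-fold and 1.35-fold lower. The first 3 were the members past the threshold, all higher, where 4.73% of genes tested were higher and 2.90% lower, and Cldn7 alone was so when any 1 Jag1+/+ library was left out. The libraries of the genotypes did not overlap for 7 members, 4 higher and 3 lower, where 14.8% of all genes tested were parted in the higher and 14.2% in the lower direction, 29.0% in all. The median log2 fold change of the members was 0.31, against 0.00 over all genes tested. Since these differences took part in the choice of genes, nothing is read from those counts.

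**Figure D1:**
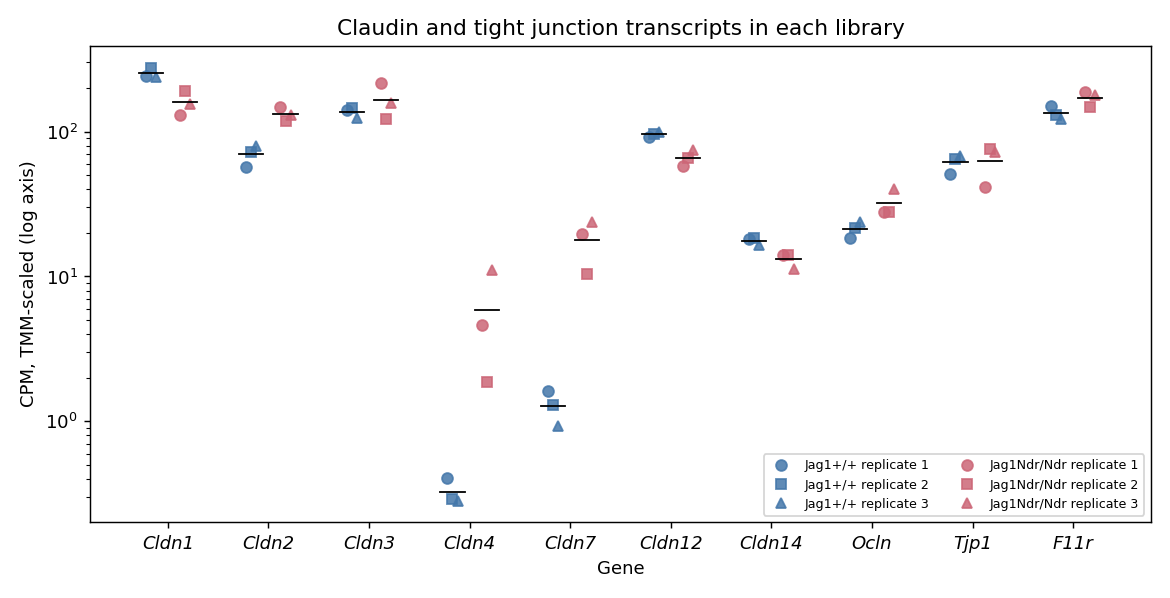
CPM of each of the 10 genes on a log axis, with 1 point per library, symbols for the replicate number, colours for the genotype and bars at the mean of 3 libraries. Cldn4 and Cldn7 are the lowest genes in Jag1+/+ and rise furthest, while Cldn3, Tjp1 and F11r overlap between genotypes.

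Cldn4, a claudin of tight epithelia that seals against sodium, was the lowest of the 10 in control livers. It measured 0.405, 0.292 and 0.284 CPM in Jag1+/+ replicates 1, 2 and 3, from 7, 9 and 11 reads. In Jag1Ndr/Ndr replicates 1, 2 and 3 it measured 4.61, 1.87 and 11.04 CPM, from 52, 133 and 207 reads. All Jag1Ndr/Ndr libraries lay above all Jag1+/+ libraries, and the highest was 5.92-fold above the lowest within Jag1Ndr/Ndr, the widest spread of any member. The fitted log2 fold change was 4.17 ± 0.69, and 3.28 without Jag1Ndr/Ndr replicate 3. Without Jag1+/+ replicates 1, 2 and 3 it was 4.31, 4.10 and 4.07. On the deposited RPKM the log2 fold change was 1.76 with a pseudocount of 1 and 3.44 with 0.1.

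Cldn7, which like Cldn4 marks absorptive and ductal epithelia and also sits along the lateral membrane, measured 1.62, 1.30 and 0.930 CPM in the Jag1+/+ libraries. It measured 19.5, 10.3 and 23.9 CPM in Jag1Ndr/Ndr replicates 1, 2 and 3. The genotypes did not overlap, and replicate 2 was the lowest and replicate 3 the highest Jag1Ndr/Ndr library, as for Cldn4. The log2 fold change was 3.82 ± 0.38, and between 3.56 and 4.12 with a library left out. With a pseudocount of 1 on the deposited RPKM it was 3.16.

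Cldn4 and Cldn7 were the members with at least a 4-fold fitted difference, and their promoter windows are shown to compare the letters around their start sites. RefSeq windows on GRCm38.p6, of 250 bases before to 50 after the annotated start, were found for all 10 genes. The motifs searched on both strands were TATAAA, the GC box GGGCGG, the AP-1 motif TGANTCA, the Grainyhead motif AACCNGTT and the E-box CACCTG, and capitals mark every match. No match overlapped another.
Cldn4, chr5:134946885-134947184, minus strand: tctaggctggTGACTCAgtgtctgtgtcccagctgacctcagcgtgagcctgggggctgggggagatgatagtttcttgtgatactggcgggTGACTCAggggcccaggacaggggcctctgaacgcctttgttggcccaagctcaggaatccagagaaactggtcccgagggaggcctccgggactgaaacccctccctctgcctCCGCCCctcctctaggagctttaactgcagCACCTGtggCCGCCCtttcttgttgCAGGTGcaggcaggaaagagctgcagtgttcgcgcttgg
Cldn7, chr11:69965171-69965470, plus strand: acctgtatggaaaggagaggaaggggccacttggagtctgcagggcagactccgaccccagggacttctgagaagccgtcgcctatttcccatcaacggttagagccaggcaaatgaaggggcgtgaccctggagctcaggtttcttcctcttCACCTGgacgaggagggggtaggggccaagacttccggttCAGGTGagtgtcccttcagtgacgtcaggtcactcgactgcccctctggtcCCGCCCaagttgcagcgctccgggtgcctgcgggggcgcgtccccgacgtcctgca

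The Cldn4 window held TGACTCA, a form of TGANTCA, at 2 places, bases 11 to 17 and 93 to 99 of the window. Of 32851 windows in the RefSeq set, 7.81% held at least 1 TGANTCA and 0.46% held 2 or more. The Cldn4 window also held 2 matches of GGGCGG and 2 of CACCTG. At least 1 match was held by 35.7% and 20.2% of windows, and 2 or more by 19.5% and 2.88%. The Cldn7 window shown held 1 GGGCGG and 2 CACCTG and no TGANTCA, and a further Cldn7 window at an upstream start, chr11:69964529-69964828, held none of the 5 motifs. TATAAA and AACCNGTT, held by 13.6% and 2.09% of all windows, were in none of these 3 windows. These are letters in a window only, and no binding was measured.

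Cldn4 (chromosome 5, positions 134945123 to 134946934) and Cldn3 (134986214 to 134987476) lie 39279 bases apart, with no RefSeq gene wholly between them. Cldn3, the most abundant claudin transcript per length and a barrier-forming claudin of hepatocytes, had overlapping genotypes. It measured 141.5, 145 and 123 CPM in the Jag1+/+ libraries and 217, 123 and 157 CPM in Jag1Ndr/Ndr replicates 1, 2 and 3. Jag1Ndr/Ndr replicates 1 and 3 lay above the control range and replicate 2 just below it, and the log2 fold change was 0.28 ± 0.22. Cldn13 lies 29592 bases to the other side of Cldn4. It measured 2.89, 1.07 and 0.723 CPM in Jag1+/+ and 18.1, 7.84 and 2.83 CPM in Jag1Ndr/Ndr libraries. The difference of 2.66 ± 0.72 on the log2 scale missed the threshold (edgeR adjusted p = 0.0621). It met the threshold by DESeq2, without a filter, in the deposited RPKM, with a replicate block and without Jag1Ndr/Ndr replicate 3. The summed level of 7 erythroid markers, with 2 of 5 tested higher, was 193, 136 and 114 CPM in Jag1+/+ and 465, 416.5 and 182 CPM in Jag1Ndr/Ndr libraries, the same order of libraries as for Cldn13, and their part in its values was not tested. Reads of Cldn3 cannot be told apart from those of the overlapping noncoding gene Wbscr25, since the libraries do not keep the strand.

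Cldn2 forms pores for cations and water, and its gene lies on the X chromosome (positions 139800808 to 139811386). It measured 56.7, 72.0 and 79.8 CPM in the Jag1+/+ libraries and 147, 119 and 130.1 CPM in Jag1Ndr/Ndr replicates 1, 2 and 3. Each Jag1Ndr/Ndr library lay above each control, and the spread within a genotype was small, with a coefficient of variation of 16.9% in Jag1+/+ and 10.8% in Jag1Ndr/Ndr. The log2 fold change was 0.93 ± 0.18. Without Jag1+/+ replicates 1, 2 and 3 it was 0.80, 0.95 and 1.03.

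Cldn1, a sealing claudin of many epithelia and in human liver an entry factor of hepatitis C virus, was lower in Jag1Ndr/Ndr livers. It measured 242, 276 and 239 CPM in Jag1+/+ and 131, 189.5 and 156 CPM in Jag1Ndr/Ndr replicates 1, 2 and 3. The genotypes did not overlap, and the log2 fold change was -0.67 ± 0.19. It stood at -0.81 without Jag1Ndr/Ndr replicate 2, and at -0.43 when fitted on deposited RPKM (pseudocount 1).

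Cldn12, a claudin without the usual scaffold-binding tail, measured 91.6, 95.5 and 99.7 CPM in Jag1+/+ and 57.8, 66.0 and 74.3 CPM in Jag1Ndr/Ndr libraries. The controls lay within a narrow band above all Jag1Ndr/Ndr libraries, and the log2 fold change was -0.53 ± 0.15. Cldn14, which in kidney restricts calcium passage and in humans underlies a form of deafness, measured 18.1, 18.5 and 16.4 CPM against 14.1, 14.1 and 11.2 CPM. Its genotypes were also apart, at a log2 fold change of -0.43 ± 0.16. Cldn14 overlaps the noncoding gene Gm31012, from which its reads cannot be told apart without strand. On the deposited RPKM at a pseudocount of 1 the log2 fold changes of Cldn12 and Cldn14 were -0.28 and -0.13, where the median of all genes shifted by 0.21. Markers of hepatocytes are given beside the lower values of Cldn1, Cldn12 and Cldn14. The 10 markers summed to 222000 to 229000 CPM for the Jag1+/+ libraries, against 106000 to 187000 CPM for Jag1Ndr/Ndr. Most of each sum was Alb alone, which did not pass the threshold (edgeR adjusted p = 0.214), so the sums mainly follow this transcript. Past the threshold 2 of 10 markers fell, Ttr and Cyp2e1, and 0 rose. In the fit 8 markers were lower and 2 higher, Hnf4a and Pck1, at 0.08 and 0.49 on the log2 scale. The part of these markers in the claudin values was not tested.

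Occludin (Ocln), a 4-pass membrane protein of the junction strands, measured 18.4, 21.5 and 23.8 CPM in Jag1+/+ and 27.7, 28.0 and 40.3 CPM in Jag1Ndr/Ndr libraries. The genotypes did not overlap, with replicate 3 standing above the others in Jag1Ndr/Ndr, and the log2 fold change was 0.59 ± 0.19. F11r encodes JAM-A, an immunoglobulin-like adhesion molecule that recruits polarity proteins. It measured 151, 129 and 123 CPM against 187, 148 and 179.5 CPM, with overlap and a log2 fold change of 0.35 ± 0.17. Tjp1 measured 50.9, 64.7 and 68.2 CPM in Jag1+/+ and 41.4, 75.8 and 72.0 CPM in Jag1Ndr/Ndr libraries. Its Jag1Ndr/Ndr libraries lay on both sides of the controls, and its log2 fold change of 0.04 ± 0.24 turned to between -0.11 and -0.06 in 4 alternatives, namely sex as a covariate and leaving out replicate 1 of Jag1+/+ or replicates 2 or 3 of Jag1Ndr/Ndr. The ratio of Ocln to Tjp1 per length was 0.795, 0.731 and 0.767 in Jag1+/+ and 1.47, 0.811 and 1.23 in Jag1Ndr/Ndr libraries.

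**Figure D2:**
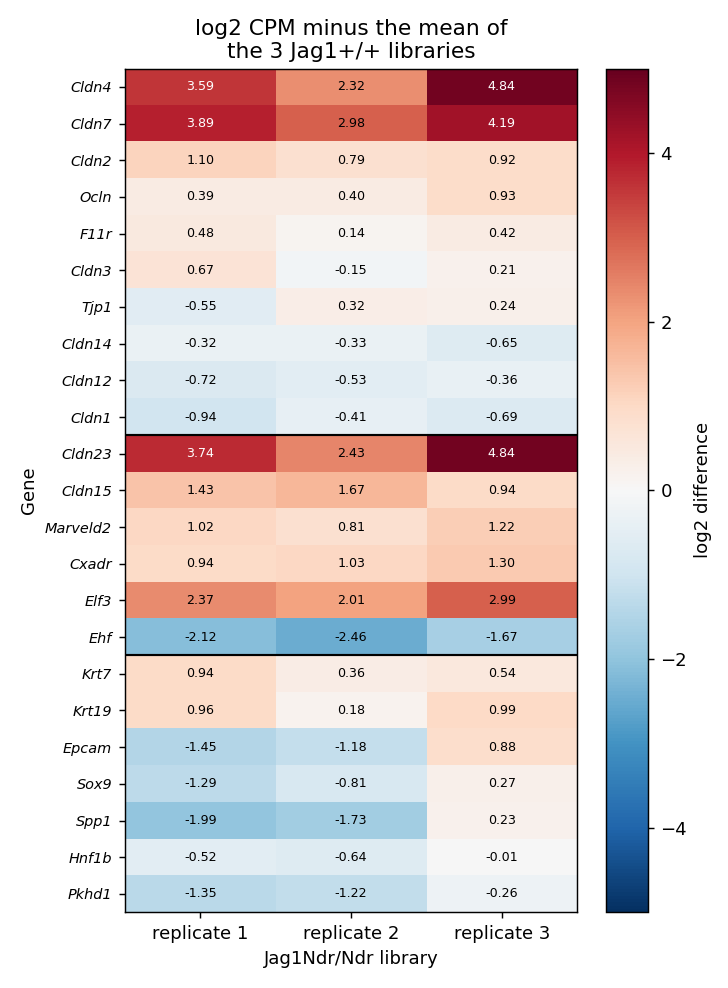
Log2 CPM of each Jag1Ndr/Ndr library minus the mean log2 CPM of the 3 Jag1+/+ libraries, for the 10 genes (top), the 6 other junction and epithelial genes past the threshold (middle) and 7 cholangiocyte markers (bottom). Cldn4 and Cldn23 stand at 3.59 and 3.74, 2.32 and 2.43, and 4.84 and 4.84 in replicates 1, 2 and 3, while Epcam, Sox9 and Spp1 are below the control mean in replicates 1 and 2 and above it in replicate 3.

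Per length, the order of the members was Cldn3, Cldn1, F11r, Cldn12, Cldn2, Cldn14, Tjp1, Ocln, Cldn7 and Cldn4 in Jag1+/+ livers, from 115 ± 9.79 to 0.186 ± 0.0386 RPKM (mean ± SD, n = 3). RPKM here are TMM-scaled CPM over the transcript length that the deposited RPKM imply. Neighbours in this order were apart in all libraries except Cldn12 from Cldn2 and Tjp1 from Ocln. In Jag1Ndr/Ndr livers Cldn3 still led, at 140 ± 40.3 RPKM, followed by F11r at 70.9 ± 8.67, Cldn1 at 50.3 ± 9.31 and Cldn2 at 44.3 ± 4.79 RPKM. Cldn1 and Cldn2 overlapped there, while in Jag1+/+ livers they stood at 80.0 ± 6.56 and 23.3 ± 3.92 RPKM. Cldn7 moved by its mean from the ninth to the sixth place, at 14.6 ± 5.62 RPKM. Its libraries overlapped those of Cldn12, Cldn14, Ocln and Tjp1, so its place among these is not settled. Cldn4 stayed last, at 3.33 ± 2.68 RPKM.

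The claudin transcripts were then set against each other within each library. The shares and ratios so formed do not depend on the scaling between libraries, while the summed RPKM does. Over the 20 claudin entries with a read, Cldn3 made up 42.2 ± 1.73% of the summed RPKM in Jag1+/+ and 44.3 ± 5.98% in Jag1Ndr/Ndr livers. Cldn1 made up 28.2%, 30.1% and 29.5% in Jag1+/+ and 11.6%, 22.9% and 15.8% in Jag1Ndr/Ndr replicates 1, 2 and 3. Cldn2 made up 7.0%, 8.30% and 10.4% against 13.8%, 15.2% and 14.0%. Each Jag1Ndr/Ndr library thus held less Cldn1 and more Cldn2 in its claudin pool than any control. Cldn7 went from 0.381 ± 0.0969% to 4.62 ± 1.52% of the pool, and Cldn4 from 0.0684 ± 0.0147% to 0.732%, 0.406% and 2.02% in Jag1Ndr/Ndr replicates 1, 2 and 3. The ratio of Cldn2 to Cldn1 was 0.248, 0.275 and 0.353 in Jag1+/+ and 1.19, 0.664 and 0.883 in Jag1Ndr/Ndr libraries. The summed RPKM of all claudins was 257 to 290 in Jag1+/+ and 262 to 359 in Jag1Ndr/Ndr libraries, which overlapped.

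**Figure D3:**
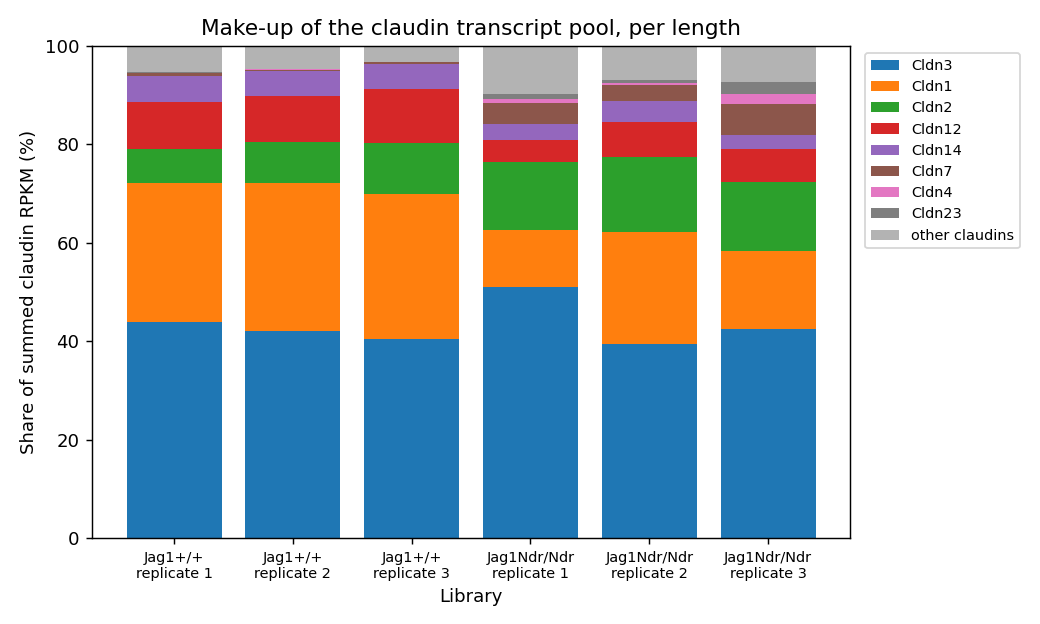
Stacked bars of each claudin's share of the summed claudin RPKM, in percent, for each of the 6 libraries. The band of Cldn1 is narrower and that of Cldn2 wider in all 3 Jag1Ndr/Ndr libraries, and Cldn7 grows from under 1% to between 3.21% and 6.24%.

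Which other transcripts followed the same course was described by the root mean square distance between centred log2 CPM profiles over the 6 libraries. For Cldn4 the nearest of 13818 other genes was Cldn23, another epithelial claudin, at a distance of 0.255, and the next was Cldn7 at 0.418. Then came Rasal1, Prr15l and Bex1, at 0.431, 0.45 and 0.462. The ratio of Cldn4 to Cldn23 per length was 0.596, 0.657 and 1.12 in the Jag1+/+ libraries. In Jag1Ndr/Ndr replicates 1, 2 and 3 it was 0.709, 0.723 and 0.789, across levels of Cldn4 that differed 5.92-fold. Since Cldn23 was picked as the nearest profile in these same libraries, a steady ratio follows from the choice. The ratio of Cldn4 to Cldn7 was 0.175, 0.158 and 0.214 in Jag1+/+ and 0.166, 0.126 and 0.324 in Jag1Ndr/Ndr libraries. For Cldn2 the nearest genes were B230206H07Rik, Gpi1, Slc20a1, Sod3 and Aldoart1, at distances of 0.0663 to 0.129. Gpi1, an enzyme of glycolysis, went from 99.2 ± 11.3 to 183 ± 31.9 CPM and Sod3, the extracellular superoxide dismutase, from 111 ± 16.8 to 217 ± 4.82 CPM (n = 3 each). Aldoart1 is an aldolase retrogene whose reads may be shared with its parent gene. With 6 libraries of 2 genotypes such likeness rests largely on the genotype difference.

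The comparison was widened to the rest of the junction, in lists of genes that are not members. Over all genes tested 4.73% were called higher and 2.90% lower, shares that stand beside the counts of each list. Among other claudins 2 of 6 tested rose and 0 fell. Cldn23 reached the filter on counts only with its Jag1Ndr/Ndr reads. Cldn8, with 16 reads in Jag1+/+ and 1 in Jag1Ndr/Ndr libraries, did not reach it. The count of other claudins is therefore partly set by the filter, and nothing is read from it. Cldn23 measured 0.695, 0.454 and 0.258 CPM in Jag1+/+ and 6.65, 2.64 and 14.3 CPM in Jag1Ndr/Ndr libraries. It rose 17.5-fold (log2 4.13 ± 0.68, edgeR adjusted p = 0.0116), or by 3.34 on the log2 scale without Jag1Ndr/Ndr replicate 3, and did not pass without Jag1+/+ replicates 2 and 3 (edgeR adjusted p = 0.0549 and 0.0526). Cldn15, a pore-forming claudin of the intestine, rose 2.64-fold, from 1.46 ± 0.465 to 3.77 ± 0.942 CPM (edgeR adjusted p = 0.0438). Cldn15 did not pass when any 1 control was left out (edgeR adjusted p from 0.0791 to 0.168), nor with replicate 1 or 2 of Jag1Ndr/Ndr left out (0.0654 and 0.0985), library totals alone (0.0569), sex as a covariate (0.10) or the deposited RPKM. Cldn5, the claudin of endothelium, measured 12.4, 13.9 and 8.76 CPM against 19.5, 9.13 and 10.7 CPM and did not pass (edgeR adjusted p = 0.841). Cldn6 stood at 15.3 CPM in Jag1Ndr/Ndr replicate 3 and between 0.671 and 2.39 CPM in the other 5 libraries. The remaining 17 claudin-family entries did not reach the filter on counts.

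Of the other membrane proteins of the tight junction, 2 of 15 tested rose and 0 fell by edgeR (2 lower at an unadjusted p under 0.05, 0 by DESeq2). Marveld2 encodes tricellulin, which closes the corners where 3 cells meet, and lies 43238 bases from Ocln on chromosome 13. It measured 16.5, 17 and 16.5 CPM in Jag1+/+ and 33.9, 29.2 and 38.8 CPM in Jag1Ndr/Ndr libraries, a rise of 2.04-fold (log2 1.03 ± 0.16, edgeR adjusted p = 0.00925). Cxadr, a junctional adhesion molecule and virus receptor, measured 81.7, 92.3 and 95.9 CPM against 173, 183.5 and 221 CPM, a rise of 2.14-fold (log2 1.10 ± 0.17, edgeR adjusted p = 0.00923). With 1 control left out, Marveld2 just missed the threshold each time (edgeR adjusted p = 0.0516, 0.0544 and 0.0517 for replicates 1, 2 and 3), and Cxadr did so for replicates 1 and 2 (0.0560 and 0.0547). Marveld2 also missed it in the deposited RPKM (limma adjusted p = 0.0685 and 0.0549 at pseudocounts of 1 and 0.1). Marveld3, a relative of occludin, measured 6.02, 1.02 and 4.75 CPM in Jag1Ndr/Ndr against 0.984 to 1.16 CPM in Jag1+/+ libraries and did not pass (edgeR adjusted p = 0.104), except by DESeq2 and without Jag1Ndr/Ndr replicate 2.

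Plaque and polarity proteins, to which Tjp1 belongs by function, gave 0 of 31 tested past the threshold by edgeR. At an unadjusted p under 0.05 there were 3 of them, and DESeq2 called 1, Micall2. By edgeR Micall2 also passed without a filter (adjusted p = 0.0444), with a replicate block (0.0341) and without Jag1Ndr/Ndr replicate 3 (0.0189). Amot passed without Jag1Ndr/Ndr replicate 1 and Mpdz without Jag1Ndr/Ndr replicate 2. The smallest adjusted p was that of Micall2, which delivers junction proteins to the membrane, at 7.38 ± 0.602 and 14.5 ± 4.47 CPM (edgeR adjusted p = 0.0542). Pard3b, Amotl1 and Magi1 followed, with log2 fold changes of -0.52, -0.49 and -0.37 and edgeR adjusted p-values of 0.17, 0.213 and 0.229. Tjp3, which encodes the scaffold ZO-3, had a log2 fold change of 0.12 ± 0.17. Adherens, desmosome and gap junction genes gave 0 of 22 by edgeR, 5 at an unadjusted p under 0.05 and 1 by DESeq2, Perp. The desmosomal Perp stood at 89.4 ± 4.51 and 61.1 ± 7.41 CPM (edgeR adjusted p = 0.0614), connexin Gja1 at 7.34 ± 0.456 and 10.8 ± 1.69 CPM (0.113), the desmosomal cadherin Dsc2 at 115 ± 13.2 and 73.8 ± 20.8 CPM (0.121) and E-cadherin Cdh1 at 125 ± 16.9 and 179.6 ± 26.1 CPM (0.124). Dsc2 passed without Jag1Ndr/Ndr replicate 3 (edgeR adjusted p = 0.0398) and with a replicate block (0.0434). Perp passed with a replicate block (edgeR adjusted p = 0.0466) and Gja1 without Jag1Ndr/Ndr replicate 1 (0.0427). Nectin2 passed without Jag1Ndr/Ndr replicate 2. The medians of these 2 lists were 0.07 and 0.02 on the log2 scale. Shares of 0 of 31 and 0 of 22 stand beside the 7.63% of all genes called in either direction.

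**Figure D4:**
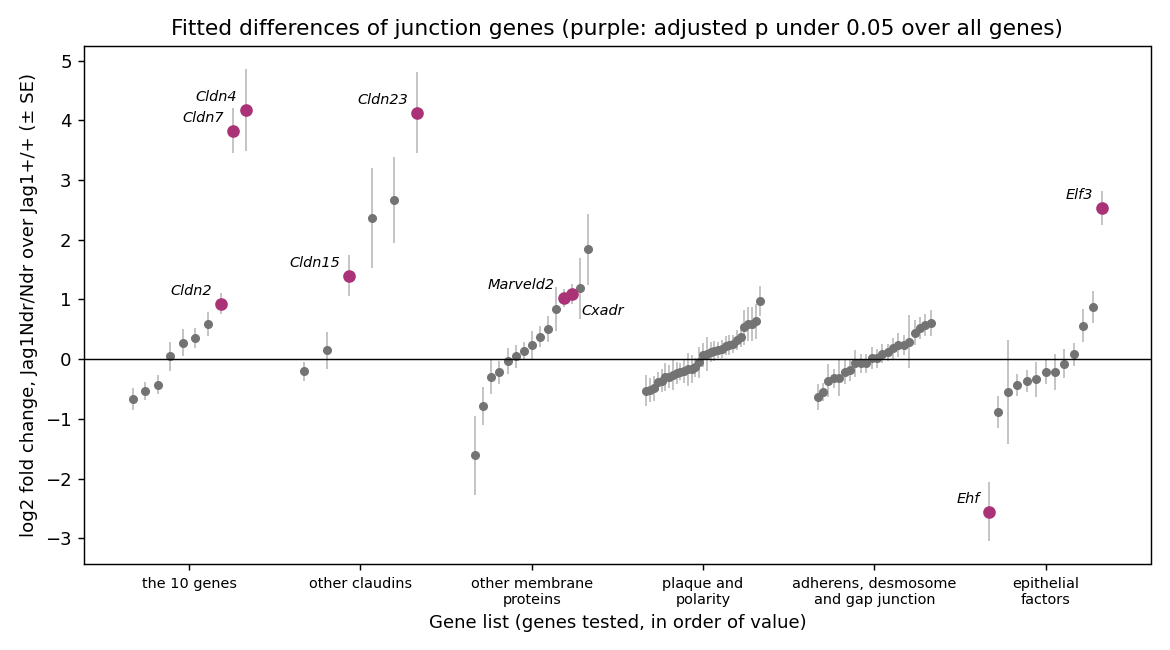
Log2 fold change with its SE for every tested gene of the 10 and of the 5 further lists, purple where the adjusted p was under 0.05 over all genes. Of the claudins Cldn2, Cldn4, Cldn7, Cldn15 and Cldn23 are past the threshold on the higher side, as are Marveld2 and Cxadr, and no claudin is past it on the lower side. Elf3 and Ehf part in opposite directions, and the plaque, polarity, adherens, desmosome and gap junction lists lie between -0.64 and 0.97.

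Among 13 tested epithelial transcription factors and their counterparts 1 rose and 1 fell by edgeR, and DESeq2 also called Klf4 and Snai2 among them. Klf4, a factor of differentiating epithelia, stood at 2.29 ± 0.289 and 4.16 ± 0.936 CPM (edgeR adjusted p = 0.0859). Snai2, a repressor of epithelial genes, stood at 9.47 ± 1.29 and 5.16 ± 1.72 CPM (edgeR adjusted p = 0.0853). It passed without Jag1Ndr/Ndr replicate 3 and with a replicate block. Elf3, an ETS factor of epithelia, rose 5.77-fold, from 3.13, 3.54 and 2.94 to 16.7, 13.0 and 25.9 CPM (log2 2.53 ± 0.28, edgeR adjusted p = 0.00314), and passed in every fit with a library left out. Its Jag1Ndr/Ndr libraries had the same order as those of Cldn4, Cldn7 and Cldn23, but so did those of Marveld2, Cdh1 and Hnf4a. The share of all genes with this order was not counted. Ehf, a close relative of Elf3, fell 5.87-fold, from 1.02 ± 0.378 to 0.190 ± 0.0710 CPM on 90 and 16 reads in all (edgeR adjusted p = 0.0196). The fall of Ehf did not pass when any 1 control was left out (edgeR adjusted p from 0.0544 to 0.0962), without Jag1Ndr/Ndr replicate 2 (0.0685), with sex as a covariate (0.0685) or in the deposited RPKM.

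Markers of the cell types that could carry these transcripts are given beside the higher values of Cldn4, Cldn7 and Cldn23. Cholangiocyte markers gave 0 of 11 past the threshold by edgeR, with 1 higher and 2 lower at an unadjusted p under 0.05. Over 14 entries they summed to 369 to 481 CPM for the Jag1+/+ libraries, against 357 to 506 CPM for Jag1Ndr/Ndr. Most of that sum was Aqp1 and Cd24a, at 130.7 to 273.5 CPM and 49.7 to 123.6 CPM over all libraries. Krt7, Krt19, Epcam and Sox9 each measured at most 7.4 CPM in any library, so the sum says little about them. Of the 11 tested, 8 were fitted lower and 3 higher, with a median log2 fold change of -0.22. The mucin Muc1 was at -1.21, the fibrocystin gene Pkhd1 at -0.86 and osteopontin (Spp1) at -0.84, and Cd24a at 0.78. The bile duct keratin Krt19, at 0.56, measured 3.07, 2.82 and 0.801 CPM against 3.81, 2.19 and 3.89 CPM. Of intestinal markers 2 of 5 tested rose, Vil1 and Apoa4, where 4.73% of all genes tested were called higher. Vil1 had 3, 18 and 7 reads in the Jag1+/+ libraries and reached the filter on counts only with its Jag1Ndr/Ndr reads. Its being tested was thus tied to its being higher. The sum of intestinal markers went from 133 to 157 CPM in Jag1+/+ and from 118 to 644 CPM in Jag1Ndr/Ndr libraries. Most of the Jag1Ndr/Ndr sum was Apoa4 alone, at 456.7, 549.7 and 80.7 CPM in replicates 1, 2 and 3. Fabp2 and Krt20 were fitted lower, at -1.24 and -0.52 on the log2 scale, and Lgals4 stood at 0.21. The libraries of the genotypes did not overlap for Fabp2. The intestinal factors Cdx1, Cdx2 and Atoh1 and the enzyme Sis had no reads in any library. With 0 reads a level of up to 0.266 CPM remains possible in the shallowest (3 reads, for counting error only). Of exocrine pancreas markers Pnlip, Amy2a5 and Ptf1a had no reads, and the sum was 4.22 to 5.32 CPM in Jag1+/+ and 3.25 to 7.97 CPM in Jag1Ndr/Ndr libraries. Mesothelial markers summed to 6.66 to 31.0 CPM against 33.1 to 40.2 CPM, with 0 of 6 past the threshold and 2 at an unadjusted p under 0.05. Macrophage markers summed to 647 to 1140 CPM against 1390 to 2320 CPM, with 1 of 8 higher, and endothelial markers to 515 to 559.6 CPM against 489 to 560.2 CPM, with 1 of 10 higher. The part of these cells in the claudin values was not tested.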

How the data were processed

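Liver RNA of 3 Jag1+/+ and 3 Jag1Ndr/Ndr libraries was measured. Per the submitters' processing notes reads were processed with STAR on mm10 (the STAR version and read counter: not given in the sources used here). The deposited counts are whole reads per gene entry, which the authors did not normalize. The deposited RPKM were multiplied by a factor per library, per the file headers, although edgeR divides by such factors, so counts were used. The length implied by the deposited RPKM agreed within 5% over libraries for 90.4% of 13545 entries with at least 20 reads in 2 or more. Besides 24489 gene entries, 93 spike-in and eGFP entries holding 5 reads were left out.

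Counts were tested over 13819 genes with edgeR's quasi-likelihood test after filterByExpr and TMM scaling, two-sided, with Benjamini-Hochberg adjustment (R 4.3.3 with DESeq2 1.42.0, limma 3.58.1 and edgeR 4.0.16). SE was derived by dividing the log2 fold change by the square root of the F statistic. A library can show a count of 0 below 0.0421 to 0.266 CPM (3 reads). On simulated counts over 13819 genes 36 of 100 simulated 2-fold changes and 98 of 100 simulated 4-fold changes were found, with 10 false calls among 13619 other genes. Every simulated gene had the same dispersion, a biological coefficient of variation of 0.243. These shares therefore do not describe genes with a wider spread, such as Cldn4. Lists of 209 symbols matched 207, 14 by another name. The genes and lists were chosen with earlier results of these data known. From each list the genes past the threshold are named, or those with the smallest adjusted p, and from other genes those nearest to Cldn2 and Cldn4. Cldn5, Cldn6, Cldn13, Marveld3, Tjp3, Amot, Mpdz, Nectin2, Klf4, Snai2, the cell type markers and Grhl2 were named after their values were seen. Alternatives were DESeq2, library totals, no filter or a stricter one (1 CPM in 3 libraries), limma on the deposited RPKM, a replicate block, sex, and leaving out each library.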

Additional observations from a re-analysis of the deposited data

How the results depend on the processing

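The number of genes past the threshold was 1054 in the fit reported, 1866 by DESeq2, 596 with sex as a covariate, 489 and 544 with limma on the deposited RPKM at pseudocounts of 1 and 0.1, and 282 to 1211 with a library left out. The share of calls that were higher was 62.0%, or 74.3% with library totals alone and 79.3% and 78.5% in the deposited RPKM, where the median log2 fold change shifted up by 0.13, 0.21 and 0.22. Among the 10 genes, 3 were higher in every fit on all 6 libraries, and 1 to 3 with a library left out. The number lower was 0, or 2 by DESeq2 (Cldn1 and Cldn12), 1 with a replicate block (Cldn1) and 0 to 1 with a library left out (Cldn1, without Jag1Ndr/Ndr replicate 2). In the junction lists 5 were higher, or 10 by DESeq2 and 1 to 8 with a library left out. The number lower was 1, or 4 by DESeq2, 6 with a replicate block, 2 without a filter, 0 with the stricter filter, sex or the deposited RPKM (both pseudocounts), and 0 to 4 with a library left out. The cause of these changes was not tested, beyond that fits without a library hold fewer samples and that the stricter filter removes Ehf. Of 140 values of the 10 genes under alternatives, 128 moved by less than 1 SD between replicates and 12 by more, and no called gene changed sign. Same-numbered libraries shared deviations at correlations of 0.0856, 0.17 and 0.195, each highest with its own number, so the numbers are a hint in the data and not a stated pairing. The replicate block gave 1430 calls over all genes and added Cldn13, Igsf11, Ildr2, Micall2, Dsc2, Perp and Snai2 to the junction lists. Cldn4 in Jag1+/+ rests on 27 reads in all, and 3 libraries per genotype limit every comparison.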

Other observations

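Grhl2, an epithelial transcription factor known in mouse to activate claudin genes, had 8, 12 and 8 reads in the Jag1+/+ libraries and 0 reads in each Jag1Ndr/Ndr library. Its pooled level was 0.323 CPM in Jag1+/+, at least 10.9-fold above the 0.0296 CPM that 3 reads over the Jag1Ndr/Ndr group would give, for counting error only. Grhl2 was too low for the filter of the fit reported, was past the threshold by DESeq2, without a filter and without Jag1Ndr/Ndr replicate 1 or 3, and was singled out after its values were seen. Among claudin-family entries under the filter, Cldn8 had 16 reads in all in controls and 1 in Jag1Ndr/Ndr livers, and Cldnd2, called by DESeq2 and without Jag1Ndr/Ndr replicate 3, had 7 and 50.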
